A study of Homo sapiens with 6 samples.

Results

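The genes described here are 9 genes of the NLRP3 inflammasome, of related inflammasome pathways and of the IL1 family cytokines. They include the sensors NLRP3 and NLRP1, the adaptor PYCARD (ASC) and the caspases CASP1 and CASP4. The pore protein gene GSDMD and the cytokines IL1A, IL1B and IL18 complete the set. All 9 were selected by name from the 26852 genes of the deposited tables, with earlier results of these data known. For each gene the transcript entry on a primary chromosome with the largest mean level, summed over the 3 tables, was chosen to stand for it. That step used levels and no fold change. Reads were found for 8 of the 9 genes, and PYCARD had none.

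RNA sequencing was done on U2OS 2-6-3 cells, a human bone tumour line into which a tet operator array with a reporter gene had been integrated. All cells of every group were illuminated with white light overnight and grown in medium without doxycycline. Untransfected cells received neither plasmid nor reagent. Mock cells received plasmids for TetR-RFP and YFP. Sample cells received plasmids for CIBN-TetR and PHR-YFP-VP16, and for mCherry-MCP, the components of a light-controlled activator aimed at the array. Both transfected groups were treated with the Roche Xtreme gene reagent, and neither reagent without plasmid nor plasmid without light was among the groups compared here. Each group had 2 libraries from this single line, and transfection was transient, so untransfected cells can remain in both transfected groups. Nothing in the labels says that the libraries of a group came from separate cultures. Every p-value is therefore set against a spread between samples that may be technical.

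Inflammasomes are cytosolic assemblies in which a sensor such as NLRP3 recruits PYCARD, which in turn recruits and activates caspase-1. Caspase-1 cleaves the precursors of IL-1β and IL-18 and cleaves gasdermin D, whose released part forms pores in the plasma membrane, while caspase-4 senses intracellular bacterial lipopolysaccharide and cleaves gasdermin D directly. In macrophages NF-kB activity first raises NLRP3 and IL1B mRNA, a step called priming, and a further signal then triggers assembly. Cleavage and assembly are protein events and were not measured here.

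Values per library are normalized read counts, that is read counts divided by a size factor for depth, solved from the means in the deposited tables. Library a of each group is the deeper and library b the shallower. Read counts summed over transcript entries, where a shared read can count more than once, ran from 9579278 in sample b to 54177551 in mock a. The sample pair stood further apart than the others, with an SD of 0.41 for the log2 difference between its libraries over 12590 genes, against 0.17 in untransfected and 0.21 in mock cells. All 8 mesenchymal markers had a mean of at least 10 normalized read counts, with summed levels of 74591 to 95035 in the 6 libraries, mostly from VIM and SPARC. RUNX2, an osteoblast transcription factor gene among them, was lower in the transfected libraries, at 380.1 and 415 normalized read counts in untransfected a and b, 66.9 and 64.2 in mock a and b, and 93.4 and 132 in sample a and b. SPARC, a bone matrix protein gene, stood at 32016 and 32407, then 20446 and 21443, then 21444 and 20959 in the same order. COL6A1 went the other way, at 1763 and 1676, then 2762 and 2795, then 2336 and 2652. CDH2 was also higher in every transfected library, at 2175 and 2400.2, then 2603 and 2614, then 2717 and 2569. The mesenchymal markers thus did not move together. A bulk library cannot tell fewer cells expressing a gene from less RNA per cell.

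RefSeq promoter sequence was at hand for 5 of the 9 genes (NLRP3, PYCARD, CASP4, IL1A and IL1B), and for NLRP1, CASP1, IL18 and GSDMD there was no entry. The window before the start of NLRP3 is shown because NLRP3 is the sensor that rose most, and the one at IL1B because that cytokine stayed at the detection limit. IL1A is shown only around its AP-1 matches. All are 5′ to 3′ on the gene's strand in build GRCh38.p14. The NLRP3 window is chr1:247415923-247416172 on the plus strand, and its last 17 bases lie in the first exon of the counted transcript. The IL1B stretch is chr2:112836904-112837029 on the minus strand, upstream of every IL1B exon of GENCODE 29. The IL1A stretches are chr2:112784488-112784516 and chr2:112784438-112784466 on the minus strand, inside or across the edge of a longer first exon in that annotation. Capitals mark a TATA box and, read on the other strand, a PU.1 core in NLRP3, and AP-1 sites in IL1A.

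NLRP3: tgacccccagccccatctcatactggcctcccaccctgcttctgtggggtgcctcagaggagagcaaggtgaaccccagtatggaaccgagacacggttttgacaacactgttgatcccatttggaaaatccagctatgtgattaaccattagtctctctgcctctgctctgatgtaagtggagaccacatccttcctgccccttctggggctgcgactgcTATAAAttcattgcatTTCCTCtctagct
IL1B: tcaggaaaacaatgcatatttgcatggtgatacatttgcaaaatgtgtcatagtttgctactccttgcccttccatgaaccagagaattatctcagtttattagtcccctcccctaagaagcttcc
IL1A upstream site: gcgaagaagacTGACTCAggcttaagctg
IL1A downstream site: tcattggcgttTGAGTCAgcaaaggtatt

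Each window of 250 bases was searched on both strands for the NF-kB consensus, the AP-1 site TGANTCA, the PU.1 core GAGGAA and the TATA box TATAAA. No searched motif overlapped another in these windows. NLRP3 held a TATA box 29 to 24 bases and a PU.1 core 13 to 8 bases before its RefSeq start. Among the 35116 windows in the RefSeq table, 10.7% held this TATA box and 23.6% this PU.1 core. In IL1A the AP-1 matches lay 105 to 99 and 55 to 49 bases before the more downstream of its 2 RefSeq starts, and 6.57% of all windows held such a match. The deposited IL1A entry begins 998 bases further upstream, so these windows are not the promoter of that entry. PYCARD held a PU.1 core 30 to 25 bases before its start, and neither IL1B nor CASP4 held any of the 4 motifs. The NF-kB consensus, present in 5.21% of all windows, was in none of the windows of these 5 genes. CpG dinucleotides numbered 3 in the NLRP3 window, 1 in IL1B, 2 in CASP4 and 16 in PYCARD, against a median of 11. These matches describe letters only, and factor binding was not measured.

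Across the 9 genes, mock cells had 5 higher and 1 lower than untransfected cells, out of 7 that the authors' deposited table tests. Sample cells against untransfected cells also had 5 higher and 1 lower, out of 6 tested in the authors' deposited table. The higher genes in both were NLRP3, NLRP1, CASP4, IL1A and IL18, the lower gene was GSDMD, and both comparisons share the untransfected libraries. A call is an adjusted p under 0.05 in the authors' DESeq2 test. Of all genes tested, 50.9% were called in mock against untransfected cells, 27.5% higher and 23.3% lower, and 37.3% in sample against untransfected cells, 20.2% higher and 17.1% lower. With limma on the recovered counts the same 6 genes were called in each, against backgrounds of 59.2% and 50.9% of the 14895 genes tested. Because so many genes were called, and because the 9 were chosen with results known, these counts describe the set and show nothing particular to it.

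**Figure D1:**
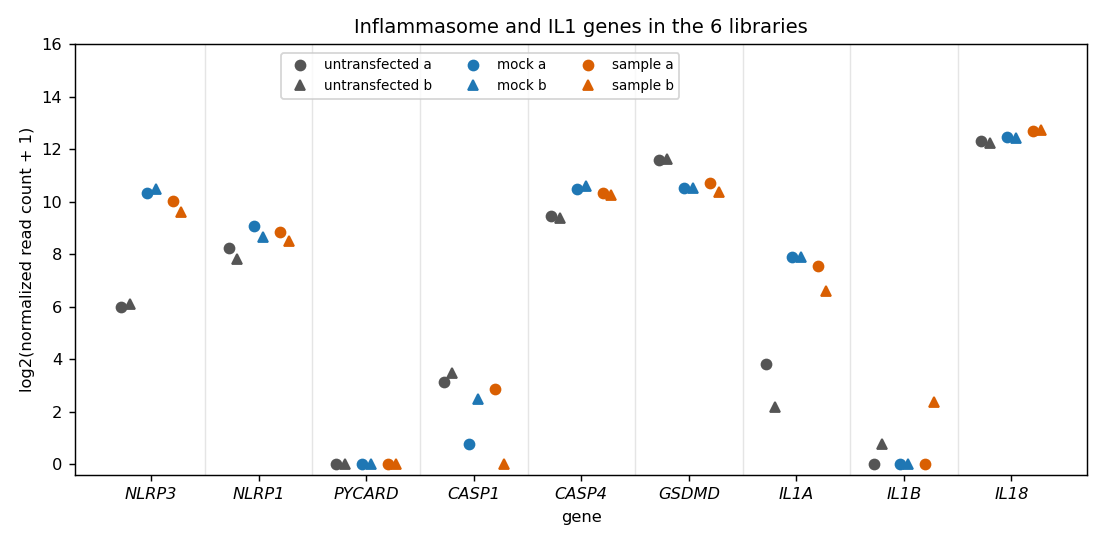
Levels of the 9 genes in each library, as log2(normalized read count + 1) on the vertical axis, with genes on the horizontal axis, circles for library a, triangles for library b and colours for the group. NLRP3 and IL1A lie far lower in the 2 untransfected libraries, GSDMD lies higher there, PYCARD is at 0 throughout and CASP1 and IL1B stay near 0.

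NLRP3, the sensor that responds to potassium efflux and many other disturbances, lies at chr1:247416156-247449108. It stood at 61.9 and 67.2 normalized read counts in untransfected a and b, 1295 and 1432 in mock a and b, and 1041 and 785 in sample a and b. Both transfected groups lay far above untransfected cells with no overlap, and both mock libraries lay above both sample libraries. Group means were 64.6 ± 3.73, 1363 ± 96.9 and 913 ± 181 (SD, n = 2), so the mock mean was 21.1-fold and the sample mean 14.1-fold the untransfected mean. The authors' deposited table gave NLRP3 log2 fold changes of 4.33 (SE 0.15, DESeq2 adjusted p = 9.43e-179) for mock and 3.64 (SE 0.22, DESeq2 adjusted p = 3.31e-59) for sample against untransfected cells. Deposited fold changes are shrunk toward 0, and limma gave 4.39 (95% interval 3.95 to 4.83) and 3.90 (3.44 to 4.36) without that. A further NLRP3 entry, which begins in a later exon, held at least 96.9% of the reads of the first in every library, so the choice of entry made little difference to its values.

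NLRP1, a sensor best known from keratinocytes, lies at chr17:5514118-5584512. It stood at 301 and 224 normalized read counts in untransfected a and b, 532 and 401 in mock a and b, and 462 and 364 in sample a and b. Every transfected library exceeded both untransfected ones, by a margin much smaller than for NLRP3, and in each group library a was above library b. The means were 262 ± 54.3, 467 ± 92.7 and 413 ± 69.8 (SD, n = 2), a ratio of 1.78 for mock and 1.57 for sample cells. NLRP1 rose in both comparisons in the authors' deposited table, with log2 fold changes of 0.83 (SE 0.18, DESeq2 adjusted p = 1.69e-05) and 0.64 (SE 0.24, DESeq2 adjusted p = 0.0235). The sample call was lost with the other NLRP1 transcript entry (adjusted p = 0.0799 in the authors' deposited table, DESeq2). It was also lost in limma fits with total counts as library size (adjusted p = 0.0701), without untransfected b (adjusted p = 0.0922) and without sample a (adjusted p = 0.236). That other entry held 94.8% and 91.4% of the reads of the first in untransfected a and b, 89.3% and 86.3% in mock, and 86.1% and 87.5% in sample cells. It was thus relatively less read in all 4 transfected libraries, in sample b with 77 reads against 88. The 2 entries overlap, so these shares do not measure isoforms, and a difference between isoforms was not tested.

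PYCARD, which links NLRP3 to caspase-1, had 0 reads in all 6 libraries. Read counts summed over all entries and libraries came to 263199786, where a read shared by entries can count more than once. The PYCARD entry lies at chr16:31201486-31202776. A count of 0 allows up to 3 reads per library, which is 1.96 to 2.79 normalized read counts in the 5 deep libraries and 12.4 in sample b. This floor, like every interval on reads here, covers counting error only. PYCARD-AS1, an antisense RNA that overlaps PYCARD, had 1.3 and 2.14 normalized read counts in untransfected a and b, 5.69 and 9.3 in mock a and b, and 1.57 and 0 in sample a and b. The kit keeps strand, per the labels, but whether counting used it is not given in the sources used here.

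CASP1, the protease that matures IL-1β and IL-18, was near the detection limit, with 40 reads in all. Its entry at chr11:105025508-105035157 had 12 and 14 reads in untransfected a and b, 1 and 5 in mock a and b, and 8 and 0 in sample a and b. These are 7.82, 10.0, 0.711, 4.65, 6.28 and 0 normalized read counts in the same order, with the untransfected libraries highest. CASP1 was not called in mock against untransfected cells in the authors' deposited table (log2 fold change -0.78, SE 0.54, DESeq2 adjusted p = 0.224), and a change was not detectable at this depth. For the other comparisons the authors' deposited table gives CASP1 no adjusted p. The neighbouring paralogs CARD16, CASP1P2 and CARD17 resemble CASP1 in sequence and can share its reads, so its count is uncertain.

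CASP4, the caspase that binds lipopolysaccharide in human cells, was well expressed from the same cluster, at chr11:104942867-104968532. It stood at 704 and 664 normalized read counts in untransfected a and b, 1421 and 1536 in mock a and b, and 1299 and 1223 in sample a and b. Library pairs were tight, no groups overlapped, and untransfected cells were lowest and mock cells highest. The means of 684 ± 28.7, 1479 ± 81 and 1261 ± 53.9 (SD, n = 2) give ratios of 2.16 for mock and 1.84 for sample against untransfected cells. CASP4 rose in the authors' deposited table by log2 fold changes of 1.12 (SE 0.10, DESeq2 adjusted p = 2.53e-26) and 0.87 (SE 0.14, DESeq2 adjusted p = 1.87e-08). The other caspases of the cluster were hardly read, with CASP5 between 0 and 1.57 normalized read counts and CASP12 at 0.

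GSDMD, the substrate of both caspases, was the gene of the set that fell. Its entry lies at chr8:143553387-143563062. It stood at 3085 and 3119 normalized read counts in untransfected a and b, 1446 and 1473 in mock a and b, and 1670.1 and 1330.1 in sample a and b. Untransfected cells lay above all transfected libraries, and the sample pair spread to both sides of the mock pair. The means were 3102 ± 23.6, 1459 ± 18.7 and 1500.1 ± 240.4 (SD, n = 2), so untransfected cells had 2.13-fold the mock level and 2.07-fold the sample level. The authors' deposited table gave GSDMD log2 fold changes of -1.06 (SE 0.08, DESeq2 adjusted p = 2.65e-38) and -1.01 (SE 0.14, DESeq2 adjusted p = 8.73e-12). Summed levels of the 7 epithelial markers were also lower in transfected cells, at 912 to 999.6 normalized read counts in untransfected, 195 to 241 in mock and 190.0 to 235 in sample libraries, with KRT1 at 0 in all 6. In untransfected cells the sum came mostly from KRT5, KRT14 and EPCAM. CDH1 did not go with the sum, at 48.2 and 43.6 in untransfected a and b. It stood at 63.3 and 38.1 in mock a and b, and 62 and 37.2 in sample a and b. TP63 and DSG3 did not exceed 4.13 in any library. The part of epithelial marker expression in the GSDMD result was not tested.

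IL1A, whose precursor is active without caspase-1, lies at chr2:112773915-112785398. It stood at 13 and 3.57 normalized read counts in untransfected a and b, 237 and 234 in mock a and b, and 184 and 95 in sample a and b. The groups did not overlap, the mock pair was nearly equal, and the untransfected and sample pairs each had library a well above library b. These values rest on 20 and 5 reads in the untransfected pair, 333 and 252 in the mock pair and 234 and 23 in the sample pair. With means of 8.31 ± 6.69, 236 ± 1.74 and 139 ± 62.7 (SD, n = 2), mock cells were at 28.4-fold and sample cells at 16.8-fold the untransfected level. IL1A rose in the authors' deposited table by log2 fold changes of 3.27 (SE 0.49, DESeq2 adjusted p = 1.88e-10) and 2.97 (SE 0.44, DESeq2 adjusted p = 2.76e-10). The limma estimates for IL1A, without shrinkage, were 5.0 (95% interval 3.83 to 6.17) and 4.44 (3.21 to 5.67), and leaving out 1 library at a time gave 4.14 to 5.91 and 3.58 to 5.35. The size of the rise is therefore known only within a wide range, while its direction was the same in each of these fits.

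IL1B, the classic product of the NLRP3 inflammasome, adjoins IL1A on chromosome 2, at chr2:112829760-112836779. It had 0 and 1 reads in untransfected a and b, 0 in both mock libraries and 0 and 1 in sample a and b, which is under the floor of 3 reads in every library. Of these neighbouring cytokine genes IL1A thus rose while IL1B was not detected above the floor in any group.

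IL18, whose precursor is made constitutively in many cell types, was the most abundant member, at chr11:112143251-112164117. It stood at 5024 and 4810.5 normalized read counts in untransfected a and b, 5577 and 5539 in mock a and b, and 6644 and 6832 in sample a and b. The groups were ordered from untransfected through mock to sample with no overlap, but the steps were small. The means of 4917 ± 151, 5558 ± 27.1 and 6738 ± 133 (SD, n = 2) give ratios of 1.13 for mock and 1.37 for sample against untransfected cells. IL18 was called higher in both in the authors' deposited table, with log2 fold changes of 0.19 (SE 0.07, DESeq2 adjusted p = 0.012) and 0.45 (SE 0.10, DESeq2 adjusted p = 3.89e-05). The mock call was lost in limma fits with total counts as library size (log2 fold change 0.04, adjusted p = 0.7) and without untransfected a (adjusted p = 0.108), untransfected b (adjusted p = 0.242), mock a (adjusted p = 0.12) or mock b (adjusted p = 0.0963). With total counts the median of all genes itself shifted from 0.01 to -0.13 in that comparison and from 0.01 to -0.12 in sample against untransfected cells. That scaling also changed the split of limma calls in mock against untransfected cells from 30.6% higher and 28.6% lower to 21.8% and 34.3%, and in sample against untransfected cells from 26.4% and 24.5% to 18.2% and 29%.

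**Figure D2:**
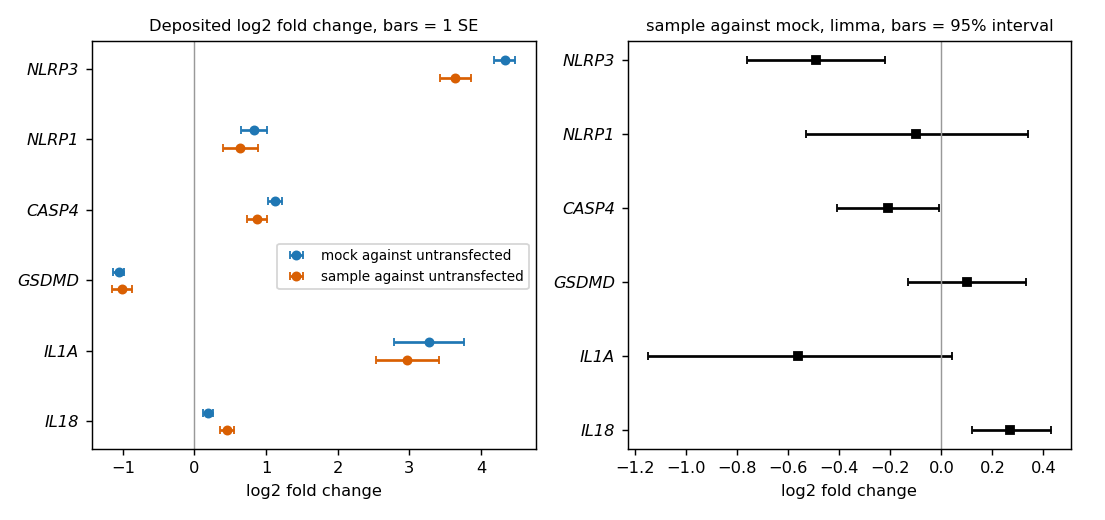
Log2 fold changes of the 6 genes called in both comparisons with untransfected cells. The left panel plots the deposited log2 fold changes with bars of 1 SE for mock (blue) and sample (orange) against untransfected cells, and the right panel plots sample against mock by limma with 95% intervals. NLRP3 and IL1A lie furthest right on the left panel and GSDMD alone lies left of 0, while on the right panel the intervals of NLRP3, CASP4 and IL18 exclude 0 without adjustment.

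Levels were set against each other only per kilobase of a matched GENCODE transcript, as mean normalized read counts per kb. In untransfected cells the order was IL18 at 4287, GSDMD at 1243, CASP4 at 510.3, NLRP1 at 54.8, NLRP3 at 16.8, CASP1 at 4.46, IL1A at 3.91 and IL1B at 0.219. Only CASP1 (3.91 to 5 per kb) and IL1A (1.68 to 6.14 per kb) overlapped among those with more than 3 reads in a library. In mock cells CASP4 at 1103 per kb stood above GSDMD at 585, and NLRP3 at 354 and IL1A at 111 stood above NLRP1 at 97.4. The ranges of IL1A (110.4 to 112) and NLRP1 (83.7 to 111) touched there. In sample cells the order was IL18 at 5874, CASP4 at 941, GSDMD at 601, NLRP3 at 237, NLRP1 at 86.2 and IL1A at 65.6 per kb, with NLRP1 (75.9 to 96.5) and IL1A (44.7 to 86.5) overlapping. NLRP3 and IL1A thus moved up the order in transfected cells and GSDMD moved below CASP4.

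Sample against mock cells asks whether the light-controlled activator plasmids differed from the control plasmids, and none of the 6 tested genes was called in the authors' deposited table. The background was low too, at 0.0785% of 15287 genes by DESeq2 and 0.0134% by limma, which also called none of the 6. At an unadjusted p under 0.05, DESeq2 in the authors' deposited table had 3 of them (NLRP3, IL1A and IL18) and limma 3 (NLRP3, CASP4 and IL18). The share of all tested genes under that unadjusted threshold is not given here, so these counts show nothing particular to the 6. NLRP3 had a log2 fold change of -0.37 (SE 0.12, DESeq2 p = 0.00155, adjusted p = 0.783) in the authors' deposited table and of -0.49 (95% interval -0.76 to -0.22, adjusted p = 0.751) by limma. Both sample values were below both mock values. Pairs of 2 libraries separate easily, and the share of all genes so separated is not given here. IL18 went the other way, with a limma log2 fold change of 0.27 (95% interval 0.12 to 0.43, adjusted p = 0.751). Limma intervals for sample against mock were -1.15 to 0.04 for IL1A, -0.41 to -0.01 for CASP4, -0.53 to 0.34 for NLRP1 and -0.13 to 0.33 for GSDMD. Without sample a, limma called NLRP3 lower in sample cells (log2 fold change -0.79, adjusted p = 0.00948), with 4.73% of all genes then called higher and 0.846% lower. That fit has sample b as its only sample library and assumes that it varies like the other groups.

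Macrophages and monocytes, in which the inflammasome is best known, were checked by 10 marker genes. TYROBP was at 0 in all 6 libraries and SPI1, which codes for PU.1, was between 0 and 0.711 normalized read counts. The summed markers were nonetheless higher in transfected cells, at 42.4 to 45 in untransfected, 109 to 142 in mock and 112 to 165 in sample libraries, and 2 of the 10 had a mean of at least 10. These were CD68, a lysosomal protein gene also expressed outside macrophages, at 13.7 and 20.7 in untransfected a and b, 73.3 and 108 in mock a and b, and 73 and 140.4 in sample a and b, and the integrin ITGAM at 5.72 to 22. PTPRC, the pan-leukocyte gene CD45, went the other way, from 13 and 10.0 in untransfected a and b to 6.4 and 5.58 in mock a and b and 3.92 and 4.13 in sample a and b. The part of CD68, ITGAM or other marker expression in the results for the 9 genes was not tested. Of 6 neutrophil markers S100A8, FCGR3B and ELANE were at 0, and the sums were 0 to 1.3, 7.11 to 15.8 and 3.92 to 8.26 in the 3 groups. In transfected libraries the sum came mostly from MPO, at 5.69 and 14.9 in mock a and b and 3.14 and 8.26 in sample a and b. Endothelial markers summed to 171 to 200.2 in untransfected, 47.4 to 49.8 in mock and 51 to 57.8 in sample libraries. Of the 5, 2 had a mean of at least 10, VWF and TEK. The lower sum came mostly from VWF, at 130.4 and 141 in untransfected a and b, 17.8 and 10.2 in mock a and b, and 20.4 and 8.26 in sample a and b. TEK overlapped between groups, at 31.3 and 49.3, then 23.5 and 31.6, then 24.3 and 37.2 in the same order. PECAM1 was at 0 in both untransfected libraries and at 12.4 in sample b.

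The other genes of the pathway were taken in 6 lists, drawn up with earlier results of these data known, and are read against the median deposited log2 fold change of all tested genes, which was 0.00 in each comparison. Among 11 further inflammasome sensors, 1 rose and 1 fell of 6 tested in mock cells, and 1 rose and 1 fell of 5 tested in sample cells. The share called was 33.3% in mock cells, against 50.9% of all tested genes, and 2 of 5 in sample cells, against 37.3%. The list's median log2 fold change in the authors' deposited table was -0.07 and -0.01. NLRP10 had 20.2 and 7.15 normalized read counts in untransfected a and b, 91.8 and 102 in mock a and b, and 84.8 and 86.7 in sample a and b. It rose by log2 fold changes of 2.43 (DESeq2 adjusted p = 4.48e-10) and 1.92 (DESeq2 adjusted p = 0.00011) in the authors' deposited table. CARD8, a sensor related to NLRP1, fell from a mean of 482 ± 35.1 to 331 ± 22.5 in mock and 312 ± 43.3 (SD, n = 2) in sample cells (log2 fold changes -0.51 and -0.57, DESeq2 adjusted p = 0.00121 and 0.0177 in the authors' deposited table). NLRP2, the most abundant of the list at a mean of 1202 ± 97.8 (SD, n = 2) in untransfected cells, was not called by DESeq2 (log2 fold changes -0.19 and -0.31 in the authors' deposited table). Limma called 1 higher and 1 lower of 5 tested in mock cells. In sample cells it called 1 higher and 2 lower of 5, so the 2 tests differ there.

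Activators, regulators and effectors of inflammasomes, 24 genes of which 23 were found, had 4 higher and 6 lower of 17 tested in mock cells and 3 higher and 2 lower of 16 in sample cells. The shares called were 58.8% and 31.2%, near the 50.9% and 37.3% of all tested genes. From the authors' deposited table their median log2 fold changes were 0.08 and -0.04. NINJ1, whose protein ruptures the plasma membrane downstream of gasdermin pores, fell like GSDMD. It went from 972 ± 48.5 normalized read counts to 451 ± 18.6 in mock and 599.9 ± 98 (SD, n = 2) in sample cells, with log2 fold changes of -1.07 (DESeq2 adjusted p = 7.34e-19) and -0.70 (DESeq2 adjusted p = 0.000244) in the authors' deposited table. DPP9, which restrains NLRP1 and CARD8, rose from 1055 ± 45.2 to 2037 ± 6.77 in mock and 2165 ± 390.5 (SD, n = 2) in sample cells (log2 fold changes 0.96 and 1.00 in the authors' deposited table). DPP8, also on the list, was called lower in mock cells there (log2 fold change -0.22, DESeq2 adjusted p = 0.0349). In sample cells DPP8 was not called (-0.35, DESeq2 adjusted p = 0.0566). It is named here after its values were seen. PANX1, a channel gene, rose from 2007 ± 44.7 to 3352 ± 88.2 and 3367 ± 39.6 (SD, n = 2), with 0.75 and 0.74 as log2 fold changes from the authors' deposited table. NLRX1 was lower in both mock (log2 fold change -0.72, DESeq2 adjusted p = 6.16e-05) and sample cells (-0.60, DESeq2 adjusted p = 0.0217) in the authors' deposited table. GBP2 was called lower in mock cells (log2 fold change -0.94, DESeq2 adjusted p = 0.0278) and was not called in sample cells (-0.12, DESeq2 adjusted p = 0.863), again from the authors' deposited table. NEK7, the kinase that NLRP3 needs to assemble, stood at 4204 ± 165, 4769 ± 485 and 4529 ± 832 (SD, n = 2) in untransfected, mock and sample cells and was called higher in mock cells (log2 fold change 0.20, DESeq2 adjusted p = 0.0345) but not in sample cells (0.11, DESeq2 adjusted p = 0.583), from the authors' deposited table. CASP8 was not called in mock cells (log2 fold change 0.18 in the authors' deposited table).

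Among 11 further IL1 family ligands and decoys, 3 were tested in each comparison and none was called by DESeq2, with median log2 fold changes of 0.07 and 0.06 from the authors' deposited table. Of all tested genes 50.9% and 37.3% were called by DESeq2, and 59.2% and 50.9% by limma. With only 3 genes tested, these counts do not set the list apart. At an unadjusted p under 0.05 DESeq2 had 1 in mock and 0 in sample cells, while limma called SIGIRR lower in mock cells (log2 fold change -0.66, adjusted p = 0.0202) and 0 in sample cells. Limma lost the SIGIRR call without untransfected a (adjusted p = 0.053), untransfected b (0.0971) or mock a (0.196). It called IL1R2, a decoy receptor, higher in mock cells without mock a (adjusted p = 0.0403), sample a (0.0447) or sample b (0.0493), but not with all 6 libraries (log2 fold change 0.74, adjusted p = 0.0785). SIGIRR, a decoy-like receptor, stood at 112 ± 6.81, 71.9 ± 14.1 and 83.3 ± 24.3 (SD, n = 2) normalized read counts in untransfected, mock and sample cells. IL1RN, the receptor antagonist, did not exceed 1.43 in any library.

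Receptors and signal adaptors of the IL1 family, 17 genes, had 6 higher and 2 lower of 14 tested in mock cells and 4 higher and 1 lower of 13 in sample cells, with median log2 fold changes of 0.23 and 0.22 from the authors' deposited table. The shares called, 57.1% and 38.5%, were again near those of all tested genes, 50.9% and 37.3%. IRAK2, a kinase-like adaptor below MYD88, rose from 59.7 ± 1.49 to 141 ± 18.4 in mock and 148 ± 10.6 (SD, n = 2) in sample cells (log2 fold changes 1.19 and 1.17, DESeq2 adjusted p = 1.74e-05 and 0.00121 in the authors' deposited table). IL1RAP, the shared co-receptor, rose from 469 ± 31.6 to 697 ± 55 and 719 ± 82.1 (SD, n = 2), with 0.58 and 0.61 as log2 fold changes from the authors' deposited table. IL18R1, a chain of the IL-18 receptor, rose in mock cells (log2 fold change 0.86, DESeq2 adjusted p = 0.00806 in the authors' deposited table). TOLLIP rose in both (0.44 and 0.45) and TAB3 fell in both (-0.33 and -0.38), as log2 fold changes from the authors' deposited table. The receptor IL1R1 itself stood at 368 ± 11.2, 411 ± 11.4 and 434 ± 34 (SD, n = 2) in the 3 groups and was not called. It is named here after its values were seen.

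Toll-like receptors and priming adaptors, 14 genes, had 5 higher and 0 lower of 10 tested in mock cells and 5 higher and 0 lower of 9 in sample cells. Of all tested genes 27.5% were called higher in mock and 20.2% in sample cells. In either direction, 5 of 10 of the list were called in mock cells, near the 50.9% of all tested genes. In sample cells it was 5 of 9, against 37.3%. The calls of the list thus differ from all tested genes in mock cells by direction, not by share called. The list's median log2 fold changes were 0.57 and 0.48 in the authors' deposited table. TLR4, the lipopolysaccharide receptor, stood at 887 and 860.1 normalized read counts in untransfected a and b, 1582 and 1588 in mock a and b, and 1669 and 1805 in sample a and b. TLR4 rose by log2 fold changes of 0.87 (DESeq2 adjusted p = 4.22e-19) and 0.97 (DESeq2 adjusted p = 4.25e-12) in the authors' deposited table. TICAM1 (0.93 and 1.33), TICAM2 (0.64 and 0.65) and TLR6 (0.53 and 0.48) rose too as log2 fold changes from the authors' deposited table, though the sample libraries of TICAM1 differed widely, at 126 and 339. With total counts as library size limma called 3 of these genes higher in each comparison rather than 5, of 7 tested. TLR1 was not called in mock cells (0.37) nor TIRAP in sample cells (0.05), as log2 fold changes from the authors' deposited table.

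Known IL1 response genes, 16 in number and partly the same as NF-kB targets, had 10 higher and 1 lower of 14 tested in mock cells and 7 higher and 0 lower of 11 in sample cells. Limma called 10 higher and 1 lower of 11 tested in each, where it called 59.2% and 50.9% of all genes. By the authors' DESeq2 test 78.6% and 63.6% of those in the deposited table were called, against 50.9% and 37.3% of all tested genes, with median log2 fold changes of 1.56 and 1.06. Several of these genes led earlier results of these data, so their direction is not independent evidence. CCL20, a chemokine gene, went from 9.13 and 9.29 normalized read counts in untransfected a and b to 213 and 216 in mock a and b and 159 and 74.4 in sample a and b (log2 fold changes 4.10 and 2.80 in the authors' deposited table). MMP3 (6.47 and 5.62), CXCL8 (4.62 and 3.39) and TNFAIP3 (3.22 and 2.57) also rose as log2 fold changes from the authors' deposited table. CXCL1 and CXCL2, textbook targets of IL-1, were at 0 in every library, and IL6 did not exceed 5.58, so the list did not move as a whole. CCL2 fell in mock cells (log2 fold change -0.66, DESeq2 adjusted p = 0.00109) but was not called in sample cells (-0.49), both in the authors' deposited table. These 3 genes and CCL2's mock value are named after their values were seen.

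In sample against mock cells, 0 of 44 tested genes of the other 5 lists were called by DESeq2 and 0 had an unadjusted p under 0.05, while limma called 0 and had 2 under 0.05 unadjusted. Of all tested genes 0.0785% were called by DESeq2 and 0.0134% by limma, and the unadjusted share is not given here. Of the IL1 response genes, 2 of 12 tested were lower in sample cells in the authors' deposited table. These were CXCL8, with 2135 and 2576 normalized read counts in mock a and b and 1308 and 872 in sample a and b, and MMP3, with 2251 and 1984 in mock a and b and 1411 and 1165 in sample a and b. Their log2 fold changes were -0.69 (DESeq2 adjusted p = 3.63e-05) and -0.51 (DESeq2 adjusted p = 0.0153) in the authors' deposited table. NLRP3 was likewise lower in both sample than in both mock libraries, without passing the test. Limma on all 6 libraries called neither CXCL8 (log2 fold change -1.0, adjusted p = 0.218) nor MMP3 (-0.66, adjusted p = 0.218). With sample a left out, limma gave log2 fold changes of -1.42 for CXCL8, -0.86 for MMP3, -1.49 for CCL20 and -0.64 for TNFAIP3. With sample b left out, they were -0.84 for CXCL8, -0.59 for MMP3, -0.43 for CCL20 and -0.52 for TNFAIP3. The limma median over 11 tested response genes was -0.64 without sample a, -0.43 without sample b and -0.55 with all 6 libraries. Each reduced fit keeps only a single sample library, which without sample a is the shallow sample b. No call is therefore drawn from them.

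**Figure D3:**
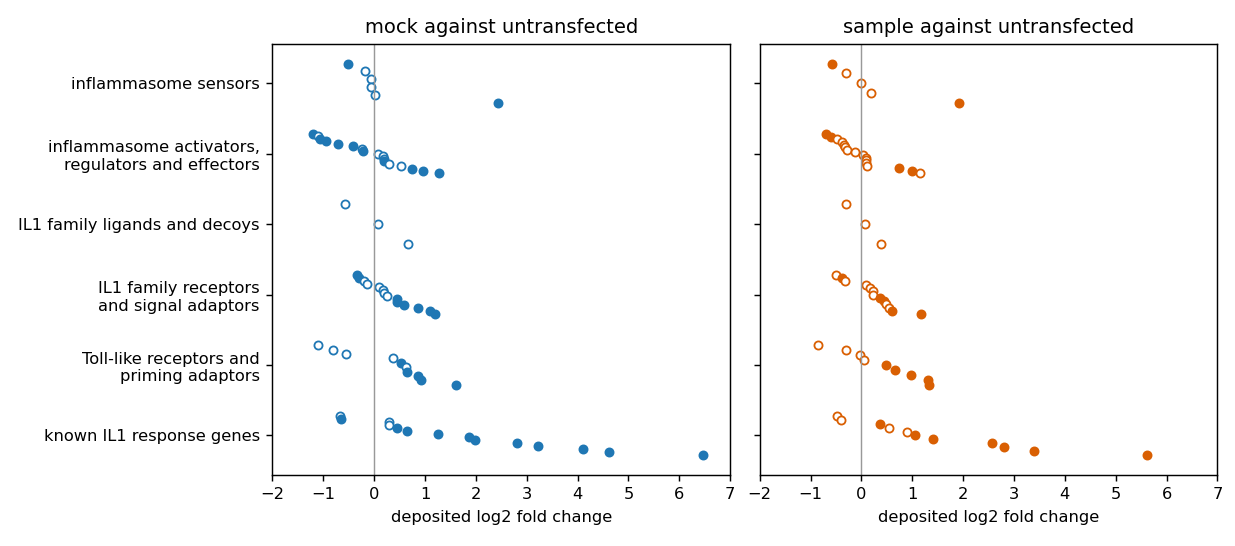
Deposited log2 fold changes (horizontal axis) of the tested genes of 6 pathway lists (vertical axis), for mock (left) and sample (right) against untransfected cells. Each point is a gene, filled where the adjusted p was under 0.05. IL1 response genes reach 6.47 in mock cells, while the 3 tested IL1 family ligands and decoys have open points only.

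Genes whose pattern over the 6 libraries was most like that of NLRP3 were ranked by the root mean square difference of log2(normalized read count + 1), each gene centred on its own mean, over 12590 genes with a mean of at least 50. The nearest were PTX3 (0.13), LPXN (0.13), SPOCD1 (0.16), SCG5 (0.19) and IL24 (0.19). PTX3, a secreted pentraxin gene, stood at 55.4 and 50.8 normalized read counts in untransfected a and b, 1142 and 1215 in mock a and b, and 899 and 805 in sample a and b. LPXN stood at 30.6 and 35.7, 671 and 687, and 437 and 434 in the same order, and the cytokine gene IL24 at 22.2 and 27.9, 474 and 527, and 358 and 401. All 5 were lowest in untransfected cells and, like NLRP3, had both mock libraries above both sample libraries. The ranking used these same libraries and selects for that order, so it adds no evidence on NLRP3. The likeness is a description over 6 libraries that share 3 group means.

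**Figure D4:**
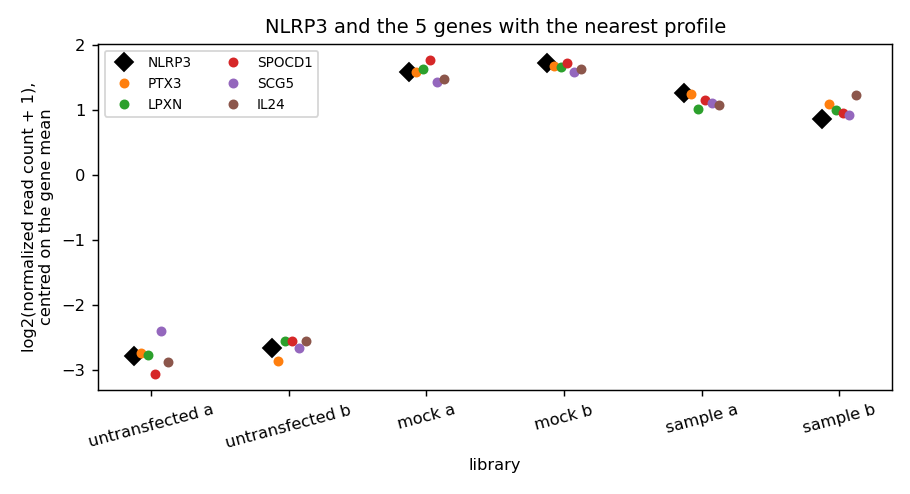
NLRP3 (black diamonds) and the 5 genes nearest to it in pattern (coloured circles), as log2(normalized read count + 1) centred on each gene's mean (vertical axis), in the 6 libraries (horizontal axis). All 6 genes are low in both untransfected libraries, highest in mock and slightly lower in sample libraries.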

How the data were processed

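RNA sequencing covered 6 libraries, 2 per group, made with a directional kit per the labels. The submitters' processing notes name Bowtie, STAR and DESeq2 and the genome build hg38. Which versions, annotation and counting were used, and for what each tool served, is not given in the sources used here. In all, the authors deposited 3 tables, each of a fit to 4 libraries. These tables hold, per the file headers, a mean signal of normalized read counts, a log2 fold change with its SE, a Wald score, a p-value and an adjusted p-value. The members, the gene lists and the tests were chosen with earlier results of these data known.

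The authors' DESeq2 results at an adjusted p under 0.05 were the main ones. The tables hold no raw counts, so edgeR was not run. A mean signal deposited by the authors adds up whole read counts over their size factors, so the counts of all 6 libraries were solved from the 3 tables by lattice reduction for 30527 of 30527 entries with reads, at a relative tolerance of 1e-14, and for 5885 of 5885 simulated entries. Replicate numbers were not recovered. Accessions were matched to symbols for 39722 of 40029 entries (99.2%), through a RefSeq gene table and GENCODE 29, and entries without a symbol held 0.067% of reads. Depth sets the precision of low counts. As read counts summed over transcript entries it ran from 9579278 to 54177551 per library. A read shared by overlapping entries can count more than once in these sums, so they are not numbers of reads sequenced. The limma-voom test (limma 3.58.1 in R 4.3.3) was run on the recovered counts (mean of at least 10, median-of-ratios library sizes, Benjamini-Hochberg adjustment). On simulated data for 14895 genes it called 76%, 56% and 58% of 2-fold rises, and 67%, 44% and 49% of halvings, in mock against untransfected, sample against untransfected and sample against mock cells. Beside the 9 members, up to 4 called members of each list with a mean of at least 50 and the largest fold changes, and 1 abundant member that was not called, are named. Alternatives changed the threshold, filter, entry, test, library size and libraries kept. Python 3.11.15, numpy 2.4.6, pandas 2.3.3, mpmath 1.4.1 and matplotlib 3.10.9 were used.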

Additional observations from a re-analysis of the deposited data

How the results depend on the processing

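The 6 members called in sample against untransfected cells fell to 3 when an absolute log2 fold change of at least 1 was also required in the authors' deposited table, which dropped NLRP1, CASP4 and IL18. The same requirement left 4 of 6 in mock against untransfected cells, without NLRP1 and IL18. The share of all tested genes that meets it is not given here. Leaving out 1 library at a time in limma gave 5 to 6 members called in each comparison with untransfected cells, and 0 to 1 in sample against mock cells, the 1 being NLRP3 without sample a. The difference of log2 group means without shrinkage put NLRP3 at -0.58 in sample against mock cells, beyond the deposited -0.37. No called member changed direction under any alternative run, while 2 that were not called in sample against mock cells changed sign when 1 library was left out, NLRP1 (-0.35 to 0.12) and GSDMD (-0.13 to 0.20). Of the alternative values for single members, 195 were classed as unchanged, among them NLRP3 fold changes that carry no p-value. Another 9 lost a call, all of them NLRP1 in sample or IL18 in mock against untransfected cells. At a DESeq2 adjusted p under 0.01 the same 2 calls were lost, which left 5 members in each of those comparisons. No paired analysis was possible because the deposited tables carry no library columns and the recovered libraries no replicate numbers, so the replicate block was not run. Depth limits PYCARD, IL1B and CASP1, and sample b is the shallowest library for all of them. With 2 libraries per group, single calls near the threshold rest on few values, and the deposited fold changes understate changes of low or variable genes.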

Other observations

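Around NLRP3 no other counted gene within 150 kb had a rise of its size. ZNF496, the nearest expressed gene upstream, stood at 904 and 919 normalized read counts in untransfected a and b, 1102 and 1179 in mock a and b, and 1102 and 1330.1 in sample a and b. It was called higher in mock cells by a small amount (log2 fold change 0.34, DESeq2 adjusted p = 0.0024 in the authors' deposited table). OR2B11, GCSAML, GCSAML-AS1, OR2C3 and OR2G2 were at 0 in all 6 libraries. Within 150 kb of IL1A the phosphate transporter gene SLC20A1 rose, from 3468 and 3396 in untransfected a and b to 7591 and 7773 in mock a and b and 6874 and 7621 in sample a and b (log2 fold change 1.18 in mock cells, DESeq2 adjusted p = 1.03e-63 in the authors' deposited table). CKAP2L, which lies between SLC20A1 and IL1A, was lower, at 2946 and 3002, 2399 and 2284, and 2304 and 2247 in the same order (log2 fold change -0.32 in mock cells, DESeq2 adjusted p = 0.00011 in the authors' deposited table).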
